A study of Mus musculus with 8 samples.

Results

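Chromatin accessibility was described at 4 mouse genes, Hes1 and the Groucho corepressor genes Tle1, Tle3 and Tle4, in transformed pro-B cells from which the transcription factor EBF1 was to be removed. A region belonged to a gene when that gene's span was the nearest protein-coding span (RefSeq, GRCm38.p6) within 100 kb of the region's centre. In the authors' deposited tables this gave 54 of 54239 regions for the line EBF1-dTAG_C and 51 of 55193 for the line EBF1-dTAG_N. Hes1 and Tle3 were selected on these same contrasts because many of their regions had fallen, so their folds and counts are a description and carry no test as a set. The assay was ATAC-seq, which uses the transposase Tn5 to tag DNA that is open.

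Both lines are pro-B cells that were transformed with A-MuLV, the Abelson leukaemia virus of mice, so the controls carry the virus too. Per the labels, the endogenous EBF1 of both lines was replaced by an exogenous modified gene, and the line names give it a dTAG degron, the handle through which dTAG-13 sends a protein to degradation. Each line was given 0.5 uM dTAG-13 or the solvent DMSO for 6 h, with 2 libraries per group, 4 groups and 8 libraries. The series describes the libraries of a group as biological replicates. Control libraries are titled 0 h but have a treatment label of 6 h in DMSO, which was used here. Whether a line is 1 clone is not given in the sources used here, and EBF1 protein was not measured in these data.

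HES1 is a basic helix-loop-helix repressor, a classical target of Notch signalling, that ends in a short peptide through which it recruits Groucho proteins. The TLE proteins are the mammalian Groucho family. They do not bind DNA in a sequence-specific way and are brought to genes by HES and RUNX proteins, by PAX5 and, when beta-catenin is absent, by TCF and LEF proteins. In the B lineage EBF1 acts with PAX5 to establish the B cell programme, and Notch signalling directs lymphoid progenitors to the T cell fate.

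The 4 DMSO peak lists held 37 to 42 peaks at 7 or 8 of 8 pro-B marker genes. Peak totals were not scaled by gene length, so they cannot be compared between the marker sets. Each list had 1 peak at Vpreb1 and at Igll1, 9 to 12 at Pax5 and 0 to 2 at Rag1. At T cell markers they held 4 to 6 peaks at 3 or 4 of 8 genes. Every list had 1 peak at Cd3d, 1 at Gata3 and 2 to 3 at Lck, and 0 at Cd3e, Cd3g, Cd8a and Bcl11b. Myeloid markers had 2 to 8 peaks at 1 to 3 of 8 genes. These were 2 to 3 at Itgam, 0 to 3 at Csf1r and 0 to 2 at Fcgr1, with 0 at Mpo, Elane, Lyz2, Cebpa and Csf3r. Read depth is unknown. The lowest background pileup, a stand-in for relative depth, was 0.331 to 0.344 with DMSO and 0.229 to 0.258 after dTAG-13 in EBF1-dTAG_C, and 0.401 to 0.408 and 0.348 to 0.372 in EBF1-dTAG_N. The lists of these libraries held 40166 to 42139 peaks with DMSO and 34202 to 39721 after dTAG-13, so lower depth and fewer peaks went with the treatment. The part of depth in the peak numbers below was not tested.

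The sequences just before the starts of Tle1, Tle3 and Tle4 are shown because the regions over these starts were not called as lower, while regions farther away fell. Each is a promoter window of 250 bases set before a start on record, 5′ to 3′ on the gene's strand, from RefSeq on GRCm38.p6. The Tle1 and Tle3 windows reach into the gene spans given below, and the marked CACGCG of Tle1 lies inside its span. Capitals mark CACGTG, the E-box core read by many basic helix-loop-helix factors, and CACGCG, a core bound by HES proteins, found on either strand. The windows are chr4:72200894-72201143 (minus strand) for Tle1, chr9:61372116-61372365 (plus strand) for Tle3 and chr19:14598184-14598433 (minus strand) for Tle4.
Tle1: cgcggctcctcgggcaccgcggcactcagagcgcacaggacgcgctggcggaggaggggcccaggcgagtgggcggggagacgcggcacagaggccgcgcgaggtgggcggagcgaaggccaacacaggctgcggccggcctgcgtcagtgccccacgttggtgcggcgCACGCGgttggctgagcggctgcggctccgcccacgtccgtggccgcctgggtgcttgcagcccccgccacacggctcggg
Tle3: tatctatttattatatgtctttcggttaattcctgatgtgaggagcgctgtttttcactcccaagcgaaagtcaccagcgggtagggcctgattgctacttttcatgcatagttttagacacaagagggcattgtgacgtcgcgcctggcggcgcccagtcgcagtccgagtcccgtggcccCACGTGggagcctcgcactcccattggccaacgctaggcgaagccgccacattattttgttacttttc
Tle4: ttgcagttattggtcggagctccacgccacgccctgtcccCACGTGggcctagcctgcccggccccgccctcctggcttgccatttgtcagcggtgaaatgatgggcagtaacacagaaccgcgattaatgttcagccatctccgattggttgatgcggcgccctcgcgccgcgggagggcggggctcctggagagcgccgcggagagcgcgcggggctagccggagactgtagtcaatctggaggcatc

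Tle3 and Tle4 each held 1 CACGTG, which occurs in 6.02% of 32851 such promoter windows, and Tle1 held 1 CACGCG, which occurs in 7.62%. These 2 cores were chosen after the folds were known. EBF1 binds the palindrome TCCCNNGGGA, which reads the same on both strands and stood in 0.779% of all windows, and in none of the 3 shown. Its inner part CCCNNGGG stood in 11.8% of all windows and in none of the 3. A later Tle4 start on record, with the window chr19:14597214-14597463, held 1 CCCNNGGG. The GC content was 77.2% at Tle1, 52.4% at Tle3 and 65.2% at Tle4, beside a median of 52.4% over all windows. A match or its absence describes the letters of the window and no more.

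The falls lay at Hes1 and Tle3, the genes chosen for them. A region was called at an adjusted p under 0.05 in the authors' deposited table, which by the submitters' notes comes from edgeR. In EBF1-dTAG_C, 6 of 15 Hes1 regions and 6 of 20 Tle3 regions fell, against 0 of 3 at Tle1 and 0 of 16 at Tle4. Of all regions there, 6.62% fell and 0.308% rose, and no region of the 4 genes rose. In EBF1-dTAG_N 7 of 12 Hes1 regions, 13 of 19 Tle3 regions, 1 of 3 Tle1 regions and 1 of 17 Tle4 regions fell, where 18.5% of all regions fell and 18.8% rose. The rises there numbered 6 at Tle4, 1 at Tle1, 1 at Tle3 and 0 at Hes1. For Hes1 and Tle3 nothing is read from these backgrounds. In bulk libraries, fewer cells with an open region and less opening per cell cannot be told apart.

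The median log2 fold, dTAG-13 over DMSO, in the authors' deposited tables was -0.44 over the Hes1 regions and -0.63 over the Tle3 regions in EBF1-dTAG_C, and 0.71 over the Tle4 regions. In EBF1-dTAG_N the medians were -0.60 at Hes1, -1.80 at Tle3 and 0.59 at Tle4. The median of all regions was 0.09 in EBF1-dTAG_C and 0.17 in EBF1-dTAG_N. The adjusted p-values of the EBF1-dTAG_N table rest on a spread pooled over regions, with 110386 denominator degrees of freedom against 11.2 in EBF1-dTAG_C. The p-values of the 2 lines therefore do not rest on the same kind of spread. With F read at the degrees of freedom of EBF1-dTAG_C, the falling regions in EBF1-dTAG_N numbered 7 at Hes1, 1 at Tle1, 13 at Tle3 and 1 at Tle4. The rising ones numbered 5 in place of 8. The F values were kept as deposited, so this reading does not replace the pooled spread with the spread of each region. It cannot show how the calls would stand with the latter.

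**Figure D1:**
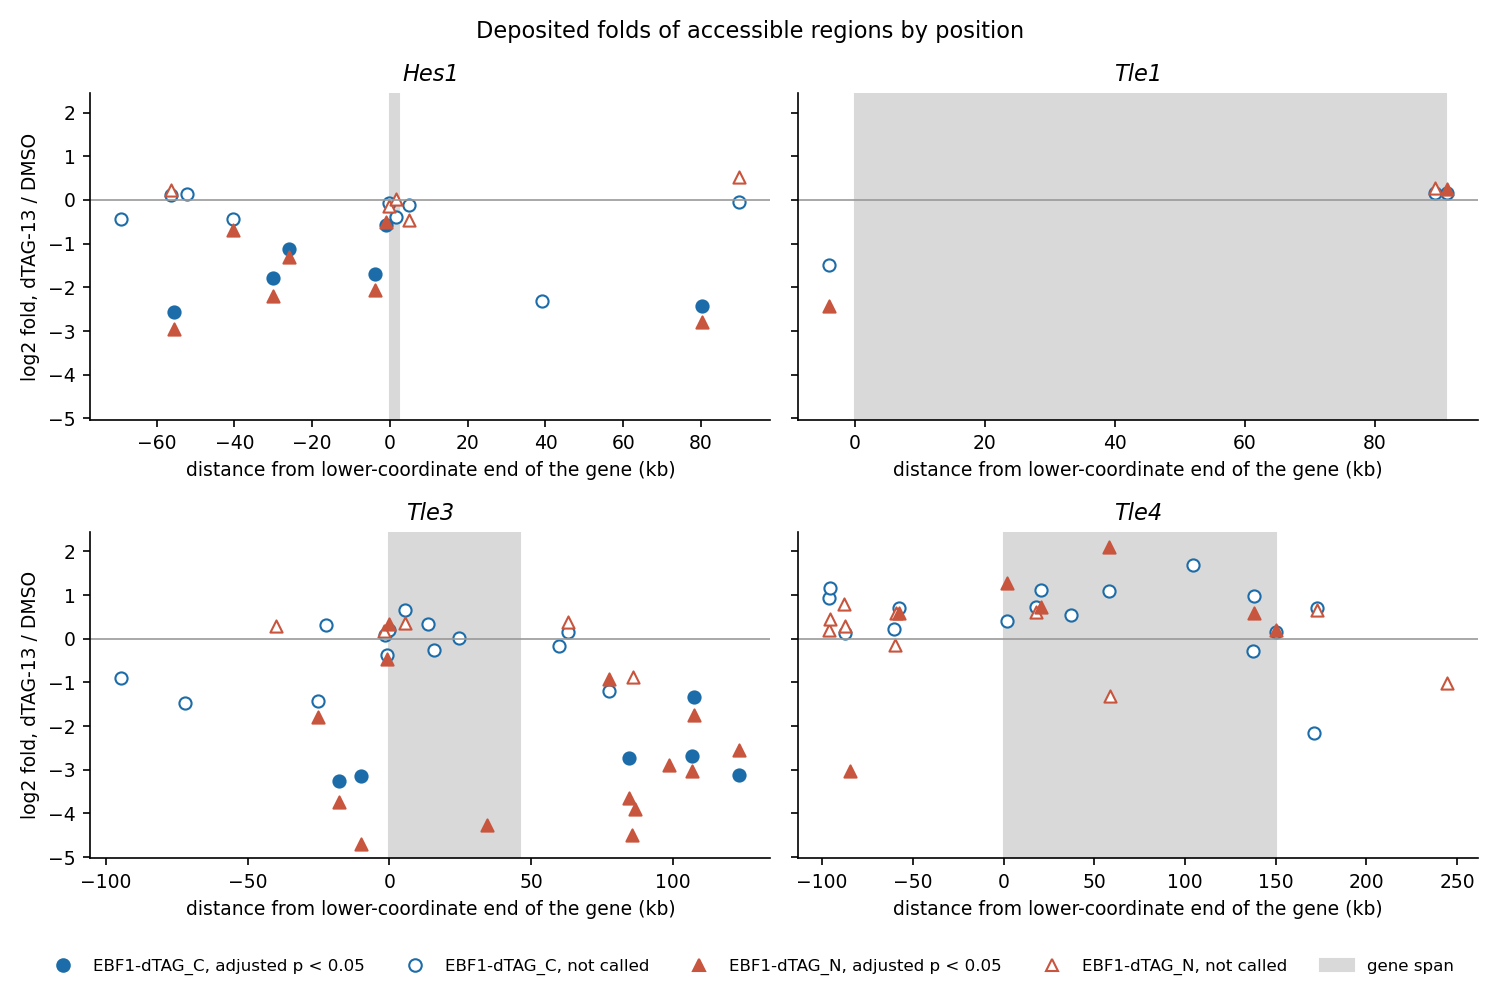
Log2 fold, dTAG-13 over DMSO, of each region in the authors' deposited tables (vertical axis) against the distance of its centre from the lower-coordinate end of the gene in kb (horizontal axis). Circles are EBF1-dTAG_C and triangles EBF1-dTAG_N, filled where the deposited adjusted p was under 0.05, and grey marks the gene span. At Hes1 and Tle3 the filled symbols below 0 lie mainly outside the grey span, and at Tle4 most symbols lie above 0.

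Hes1 is a short gene of 2.44 kb at chr16:30065357-30067796, and all its falling regions lay outside its span. They stood on both sides of it, from 55.5 kb below the lower end to 77.9 kb beyond the upper end. The values given for single libraries are the authors' fold enrichment at the peak summit, the pileup divided by the background around it in that library. A value of 0 means that no peak of that library's list overlapped the region by at least 1 bp, not that no reads fell there. These values are not scaled between libraries and are shown as a description.

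The farthest region below Hes1, chr16:30009628-30009993 in EBF1-dTAG_C, had a fold enrichment of 21.7 and 18.6 in the DMSO libraries and 0 in both dTAG-13 libraries. Its counterpart in EBF1-dTAG_N, chr16:30009576-30009989, had 22.8 and 26.2 with DMSO and 0 in both after dTAG-13. In both lines it was a strong peak in every DMSO list, above 81.6% of the peaks of its list or more by p, and missing from every dTAG-13 list. The authors' deposited tables give it a 5.87-fold lower accessibility in EBF1-dTAG_C (log2 fold -2.55, adjusted p = 0.000159) and a 7.73-fold lower one in EBF1-dTAG_N (log2 fold -2.95, adjusted p = 4.43e-37). It lies within the non-coding gene 4632428C04Rik of the annotation.

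The region above the gene, chr16:30145408-30145941 in EBF1-dTAG_C, had fold enrichments of 21.6 and 23.0 with DMSO and 9.35 and 10.2 after dTAG-13. In EBF1-dTAG_N, at chr16:30145393-30145933, it had 26.3 and 23.6 with DMSO and 9.73 and 10.1 after dTAG-13. Here the peak was lower in both dTAG-13 libraries of each line, with no overlap of the groups, but it stayed in all 8 lists. The authors' deposited tables put it 5.40-fold lower in EBF1-dTAG_C (log2 fold -2.43, adjusted p = 4.86e-05) and 6.88-fold lower in EBF1-dTAG_N (log2 fold -2.78, adjusted p = 1.69e-95).

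A further region 26.01 kb below Hes1, chr16:30039051-30039643, had 25.8 and 26.01 with DMSO and 15.3 and 17.0 after dTAG-13 in EBF1-dTAG_C. In EBF1-dTAG_N, at chr16:30039146-30039616, it had 22.8 and 22.6 with DMSO and 11.7 and 10.2 after dTAG-13. The DMSO libraries were higher than both dTAG-13 libraries in each line. The log2 fold in the authors' deposited tables was -1.11 (adjusted p = 0.000396) and -1.31 (adjusted p = 1.04e-15), a smaller change than at the 2 regions at the far ends.

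Nearer to Hes1, the region at chr16:30061354-30061638 had 8.09 and 9.46 with DMSO and 0 in both dTAG-13 libraries of EBF1-dTAG_C. In EBF1-dTAG_N, at chr16:30061343-30061723, it had 15.1 and 13.5 with DMSO, and 4.87 and 0 after dTAG-13. The groups did not overlap in either line. The authors' deposited tables give log2 folds of -1.69 (adjusted p = 0.00205) and -2.07 (adjusted p = 7.35e-26) for this region 3.8 kb from the gene.

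A weak region 30.0 kb below Hes1, chr16:30035220-30035418, was listed in only 1 DMSO library of each line, at a fold enrichment of 4.54 in EBF1-dTAG_C and 4.57 in EBF1-dTAG_N. The authors' deposited tables have it falling in both lines, with log2 folds of -1.80 (adjusted p = 0.0116) and -2.20 (adjusted p = 0.000106). The region 1.1 kb below the gene, chr16:30063996-30064495 in EBF1-dTAG_C and chr16:30063970-30064486 in EBF1-dTAG_N, fell slightly, by 0.58 (adjusted p = 0.0367) and 0.51 (adjusted p = 4.40e-05) on the log2 scale, per the authors' deposited tables. In EBF1-dTAG_C its fold enrichments overlapped between the groups, with 9.44 and 8.93 against 7.09 and 9.99. In EBF1-dTAG_N they were 7.90 and 8.502 against 8.504 and 8.88, so both dTAG-13 libraries were higher there, 1 of them barely. The peak heights over background thus do not show this small fall. The region 40.4 kb below Hes1 fell in EBF1-dTAG_N alone by call, with log2 folds of -0.43 (adjusted p = 0.209) and -0.69 (adjusted p = 0.000332) in the authors' deposited tables.

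The region over the lower end of Hes1 itself was not called. In EBF1-dTAG_C, at chr16:30065046-30065396, it had 8.16 and 8.77 with DMSO and 12.97 and 10.9 after dTAG-13. In EBF1-dTAG_N, at chr16:30065056-30065388, it had 6.58 and 4.69 with DMSO and 7.69 and 8.31 after dTAG-13. The enrichment over background was thus higher in the dTAG-13 libraries of both lines, while the authors' deposited tables give log2 folds of -0.08 (adjusted p = 0.896) and -0.15 (adjusted p = 0.522). Fold enrichment, which divides by each library's own background, and the deposited fold are different quantities and here had different signs. The region near the upper end, which starts at chr16:30066946 in both tables, was listed in 1 DMSO library of EBF1-dTAG_C and 1 dTAG-13 library of EBF1-dTAG_N and was not called (log2 folds of -0.39 and 0.02 in the authors' deposited tables, adjusted p = 0.553 and 0.956).

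**Figure D2:**
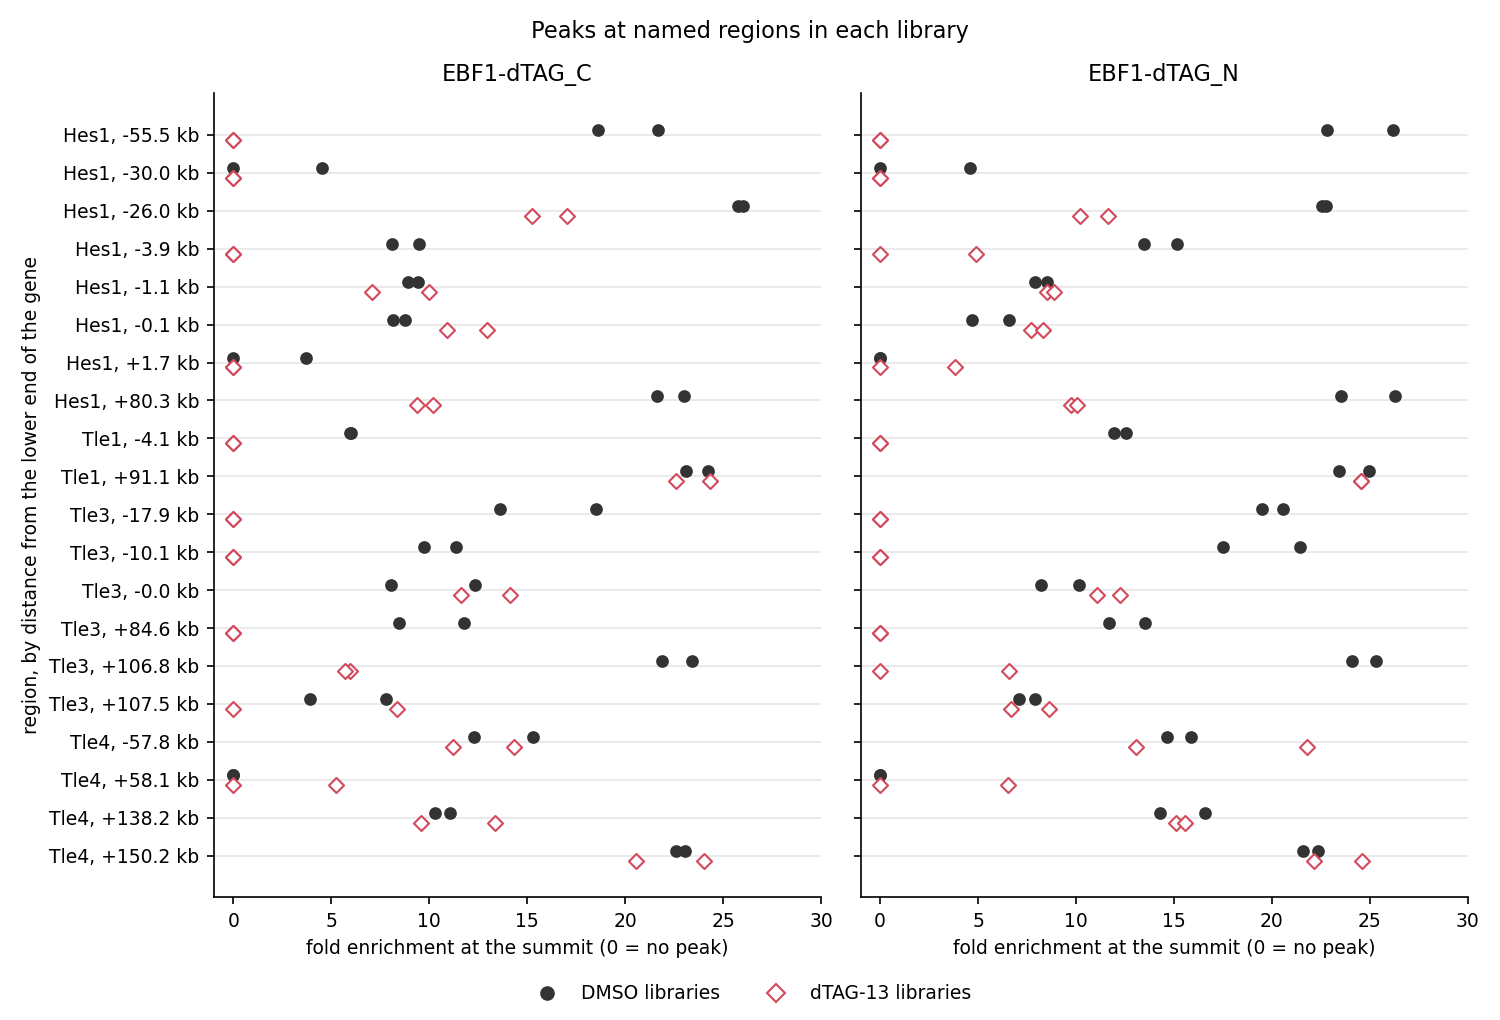
Fold enrichment at the peak summit (horizontal axis, 0 = no peak in that list) of the regions described in both lines, one row per region, labelled with its distance in kb from the lower end of the gene. Black circles are the 2 DMSO libraries and open diamonds the 2 dTAG-13 libraries of each line. The diamonds of Hes1 at -55.5 kb, of Tle1 at -4.1 kb and of Tle3 at -17.9, -10.1 and +84.6 kb sit at 0 in both lines. Those of Hes1 at -30.0 kb do so too, but there 1 DMSO library of each line is also at 0. At the starts of Tle1, Tle3 and Tle4 the 2 groups lie close together.

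Tle3 encodes a full-length Groucho corepressor, with an N-terminal tetramerisation domain and a C-terminal WD repeat domain. It spans 46.2 kb at chr9:61372326-61418497 on the plus strand, and its falling regions lay upstream of the start and beyond the far end, except for 1 inside the span in EBF1-dTAG_N. The nearer upstream one, chr9:61362035-61362342 in EBF1-dTAG_C, had fold enrichments of 11.4 and 9.76 with DMSO and 0 in both libraries after dTAG-13. In EBF1-dTAG_N, at chr9:61361994-61362466, it had 21.4 and 17.5 with DMSO and again 0 in both after dTAG-13. The peak was in all 4 DMSO lists and in none of the 4 dTAG-13 lists. The authors' deposited tables put it 8.82-fold lower in EBF1-dTAG_C (log2 fold -3.14, adjusted p = 0.0036) and 25.8-fold lower in EBF1-dTAG_N (log2 fold -4.69, adjusted p = 7.47e-41).

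The next region upstream of Tle3, 17.9 kb from the span, followed the same pattern. At chr9:61354224-61354632 it had 18.5 and 13.6 with DMSO in EBF1-dTAG_C, and at chr9:61354209-61354644 it had 20.6 and 19.5 with DMSO in EBF1-dTAG_N. No dTAG-13 list of either line held a peak there. The authors' deposited tables give log2 folds of -3.26 (adjusted p = 9.12e-05) and -3.74 (adjusted p = 1.21e-45), which is 9.55-fold and 13.3-fold lower. A weaker region 25.2 kb upstream fell in EBF1-dTAG_N (log2 fold -1.80, adjusted p = 0.000184) and was not called in EBF1-dTAG_C (log2 fold -1.43, adjusted p = 0.0911) in the authors' deposited tables. This weaker region overlaps the non-coding gene Gm39349.

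Beyond the far end of Tle3 the tallest falling region lay 60.6 kb away. In EBF1-dTAG_C, at chr9:61478870-61479348, it had 23.4 and 21.9 with DMSO and 5.96 and 5.69 after dTAG-13. In EBF1-dTAG_N, at chr9:61478866-61479357, it had 25.3 and 24.1 with DMSO, and 0 and 6.57 after dTAG-13. The DMSO libraries were far above the dTAG-13 libraries, though 3 of 4 dTAG-13 lists still held a peak. The log2 fold in the authors' deposited tables was -2.69 in EBF1-dTAG_C (adjusted p = 1.57e-05) and -3.03 in EBF1-dTAG_N (adjusted p = 2.95e-98).

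About 38.5 kb beyond the far end of Tle3, the region at chr9:61456831-61457116 had 8.44 and 11.8 with DMSO and 0 in both after dTAG-13 in EBF1-dTAG_C. In EBF1-dTAG_N, at chr9:61456812-61457183, it had 11.7 and 13.5 with DMSO and 0 in both after dTAG-13. The authors' deposited tables give log2 folds of -2.73 (adjusted p = 0.0186) and -3.64 (adjusted p = 1.91e-29). It stood beside a group of regions that only the EBF1-dTAG_N table holds, not all of which were called. One of them, chr9:61457553-61457936, had 10.6 and 11.7 with DMSO and 0 in both after dTAG-13, and the authors' deposited table has it 22.7-fold lower (log2 fold -4.50, adjusted p = 1.81e-38). Another, starting at chr9:61458738, had a log2 fold of -3.91 (adjusted p = 6.17e-11) in that deposited table and was listed in 1 DMSO library. The region between them, chr9:61458190-61458339, was listed in 1 dTAG-13 library only, at 5.19, and was not called (deposited log2 fold -0.89, adjusted p = 0.429).

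The other falling Tle3 regions were weaker or were listed in fewer libraries. The region at chr9:61479675-61479982 had 3.91 and 7.79 with DMSO and 8.36 and 0 after dTAG-13 in EBF1-dTAG_C, so the groups overlapped, although the authors' deposited table calls a fall of 1.34 on the log2 scale (adjusted p = 0.0256). In EBF1-dTAG_N the same region had 7.92 and 7.08 with DMSO and 6.68 and 8.65 after dTAG-13, again overlapping, with a deposited log2 fold of -1.74 (adjusted p = 8.56e-16). The region at chr9:61495621-61495958 had 9.67 and 9.77 with DMSO and 0 in both after dTAG-13 in EBF1-dTAG_C (log2 fold -3.11, adjusted p = 0.037 in the authors' deposited table). Its log2 fold in EBF1-dTAG_N was -2.55 (adjusted p = 1.41e-08). The 1 falling region inside the Tle3 span, chr9:61406647-61406873 in EBF1-dTAG_N, was listed in a single DMSO library at 6.43 and had a deposited log2 fold of -4.25 (adjusted p = 6.65e-06). In EBF1-dTAG_N chr9:61470838-61471086, listed in 1 DMSO library, fell too (deposited log2 fold -2.89, adjusted p = 0.0126). So did chr9:61449549-61449925, which overlaps the non-coding gene Gm34322 (deposited log2 fold -0.93, adjusted p = 0.00859). It was not called in EBF1-dTAG_C (-1.21, adjusted p = 0.135).

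The region over the start of Tle3, which overlaps the promoter window shown above, did not fall. In EBF1-dTAG_C, at chr9:61372121-61372495, it had 12.4 and 8.03 with DMSO and 11.6 and 14.1 after dTAG-13. In EBF1-dTAG_N, at chr9:61372121-61372500, it had 8.20 and 10.2 with DMSO and 11.1 and 12.2 after dTAG-13. The groups overlapped in EBF1-dTAG_C and did not in EBF1-dTAG_N, where the dTAG-13 libraries were higher. The log2 fold in the authors' deposited tables was 0.20 (adjusted p = 0.623) and 0.34 (adjusted p = 0.00777). The latter is called as a rise, but not once the folds are centred on the median of the table (0.17, adjusted p = 0.271). A region 0.9 kb before the start fell slightly in EBF1-dTAG_N (log2 fold -0.46, adjusted p = 0.000851) and was not called in EBF1-dTAG_C (log2 fold -0.37, adjusted p = 0.379) in the authors' deposited tables.

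Tle1, another full-length member, spans 91.0 kb at chr4:72109945-72200989 on the minus strand and had 3 regions in each table. The region past its far end, chr4:72105763-72106026, had fold enrichments of 5.95 and 6.01 with DMSO and 0 in both dTAG-13 libraries of EBF1-dTAG_C. In EBF1-dTAG_N, at chr4:72105773-72106172, it had 12.6 and 11.9 with DMSO and 0 in both after dTAG-13. It was in all DMSO lists and in no dTAG-13 list, as at Tle3. In the authors' deposited tables it was not called in EBF1-dTAG_C (log2 fold -1.50, adjusted p = 0.299) and fell in EBF1-dTAG_N (log2 fold -2.43, adjusted p = 5.59e-13).

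The start of Tle1 was a tall peak in all 8 libraries. In EBF1-dTAG_C, at chr4:72200796-72201344, it had 23.1 and 24.2 with DMSO and 22.6 and 24.3 after dTAG-13. In EBF1-dTAG_N, at chr4:72200798-72201342, it had 23.4 and 24.9 with DMSO and 24.5 and 24.6 after dTAG-13. The groups overlapped in both lines. The log2 fold in the authors' deposited tables was 0.16 (adjusted p = 0.642) and 0.25 (adjusted p = 0.00134), and the rise called in EBF1-dTAG_N is lost when the folds are centred (0.08, adjusted p = 0.414). The same region overlaps the promoter of the non-coding gene C630043F03Rik. The third region, inside the Tle1 span, was not called in either line.

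Tle4 spans 150.1 kb at chr19:14448072-14598183 on the minus strand, and its regions mostly had folds above 0. The log2 fold was positive for 14 of 16 regions in EBF1-dTAG_C, and in EBF1-dTAG_N for 13 of 17, in the authors' deposited tables. Its start was among the strongest peaks of every list, above at least 98.8% of the peaks by p. In EBF1-dTAG_C, at chr19:14597949-14598673, the start had 22.6 and 23.1 with DMSO and 20.5 and 24.0 after dTAG-13. In EBF1-dTAG_N, at chr19:14597954-14598678, it had 21.6 and 22.3 with DMSO and 22.2 and 24.6 after dTAG-13. The groups overlapped in both lines. The log2 fold in the authors' deposited tables was 0.14 (adjusted p = 0.408) and 0.20 (adjusted p = 0.00023), and on centred folds the latter was 0.03 (adjusted p = 0.746).

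The largest Tle4 rise was inside the gene, at chr19:14506007-14506302 in EBF1-dTAG_N. It had 0 in both DMSO libraries, and 0 and 6.55 after dTAG-13. The authors' deposited table puts it 4.28-fold higher (log2 fold 2.10, adjusted p = 0.00271), and on centred folds it was still called (1.93, adjusted p = 0.00754). In EBF1-dTAG_C the overlapping region had a log2 fold of 1.08 and was not called (adjusted p = 0.485 in the authors' deposited table). A region just inside the far end, chr19:14449815-14450078, had 0 in both DMSO libraries of EBF1-dTAG_N and 11.8 and 6.90 after dTAG-13, with a deposited log2 fold of 1.28 (adjusted p = 0.038). The other rises in EBF1-dTAG_N had deposited log2 folds of 0.59, 0.73 and 0.59 (adjusted p = 0.00889, 0.0218 and 0.0203), and their fold enrichments overlapped between the groups. Of the 8 rises at the 4 genes, 1 was called on centred folds, where 20.8% of all EBF1-dTAG_N regions fell and 7.98% rose.

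A single Tle4 region fell, 84.5 kb beyond the far end at chr19:14363424-14363710, in EBF1-dTAG_N. It had 15.4 and 11.8 with DMSO and 0 in both after dTAG-13. The authors' deposited table puts it 8.11-fold lower (log2 fold -3.02, adjusted p = 2.45e-10), and the EBF1-dTAG_C table holds no overlapping region. Near the limit of 100 kb, the farthest Tle4 region kept, at 96.3 kb, had a deposited log2 fold of 0.92 in EBF1-dTAG_C and 0.20 in EBF1-dTAG_N. The nearest one left out, at 104.0 kb, had -0.59 and -1.06. It was called as a fall in EBF1-dTAG_N (adjusted p = 3.63e-07 in the authors' deposited table), so the single Tle4 fall depends on the limit. At Tle3 the farthest region kept in EBF1-dTAG_C, at 94.5 kb, had -0.90, and the nearest left out, at 120.4 kb, had 0.92. In EBF1-dTAG_N these were -2.55 at 77.3 kb and -5.23 at 175.8 kb, and the latter was also called as a fall (adjusted p = 3.17e-20 in the authors' deposited table). The farthest Hes1 region, at 87.4 kb, had -0.04 and 0.53.

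By position, most falls were outside the gene spans. Of the regions over 1 kb outside the spans, 12 of 35 fell in EBF1-dTAG_C, and 20 of 36 did so in EBF1-dTAG_N, where 7.48% and 20.5% of all such regions fell. Of those inside and over 1 kb from the ends, 0 of 13 and 1 of 9 fell, against 7.99% and 22% of all such regions. Of those within 1 kb of a gene end, 0 of 6 and 1 of 6 fell, against 2.08% and 6.82%. Since Hes1 and Tle3 were selected for their falls, these shares describe where the selected falls lie. Hes1 had 0 regions inside its span and over 1 kb from its ends in either line. Tle4 held 8 of the 13 such regions in EBF1-dTAG_C and 6 of the 9 in EBF1-dTAG_N. Position and gene therefore cannot be told apart in these shares. A peak that both DMSO libraries listed and no dTAG-13 library did was found at 8 of 54 regions in EBF1-dTAG_C, and at 8 of 51 in EBF1-dTAG_N, which is 14.8% and 15.7%, against 8.46% and 10.3% of all regions. Tle3 held 5 of the 8 in each line, and 5 regions showed this pattern in both lines, namely 3 at Tle3, 1 at Hes1 and 1 at Tle1.

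**Figure D3:**
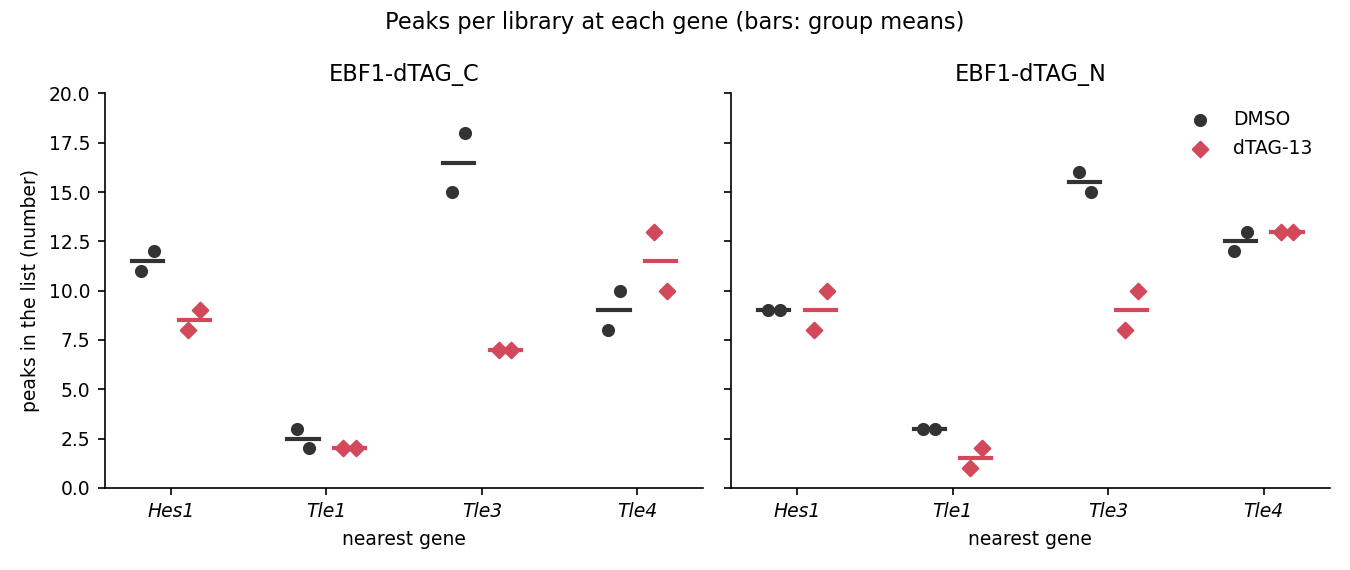
Number of peaks nearest to each gene (vertical axis) in every library of the 2 lines, with DMSO as circles and dTAG-13 as diamonds and bars at the group means. Tle3 had 15 to 18 peaks with DMSO and 7 to 10 after dTAG-13, while Tle4 had 8 to 13 with DMSO and 10 to 13 after dTAG-13.

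Tle3 lost the most peaks per library. It had 15 and 18 peaks with DMSO and 7 and 7 after dTAG-13 in EBF1-dTAG_C, that is 16.5 ± 2.12 (SD, n = 2) and 7 ± 0 (SD, n = 2). In EBF1-dTAG_N it had 16 and 15 with DMSO and 8 and 10 after dTAG-13, that is 15.5 ± 0.707 (SD, n = 2) and 9 ± 1.41 (SD, n = 2). The groups did not overlap in either line. Hes1 had 11 and 12 peaks with DMSO and 8 and 9 after dTAG-13 in EBF1-dTAG_C, but 9 and 9 against 8 and 10 in EBF1-dTAG_N. The mean number at Hes1 was thus the same in EBF1-dTAG_N although 7 of its 12 regions fell. Tle1 had 1 to 3 peaks in every library. Tle4 had 8 and 10 with DMSO and 13 and 10 after dTAG-13 in EBF1-dTAG_C, and 12 and 13 against 13 and 13 in EBF1-dTAG_N. Over the 4 genes the numbers were 37 and 42 against 30 and 28 in EBF1-dTAG_C, and 40 and 40 against 30 and 35 in EBF1-dTAG_N. No test was made, since these libraries also chose the genes. When every list was cut to the same number of best peaks, the difference of the means in EBF1-dTAG_C shrank from -10.5 to -1.0, and in EBF1-dTAG_N it went from -7.5 to -6.5.

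The 2 lines held 40 overlapping region pairs at these genes, and 37 had folds of the same sign. At Hes1 6 of 12 pairs fell in both lines and 1 fell in EBF1-dTAG_N alone by call. At Tle3 6 of 13 pairs fell in both and 3 in EBF1-dTAG_N alone by call. Tle1 had 1 pair of 3 called in EBF1-dTAG_N alone, and none of the 12 Tle4 pairs fell in either line. No pair fell in EBF1-dTAG_C alone, and none was called in opposite directions. Of all 43139 such pairs, 7.98% fell in both lines. Both contrasts chose Hes1 and Tle3, so their shared falls are no independent repeat. The difference between the lines was not tested, because the tables hold no values per library.

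**Figure D4:**
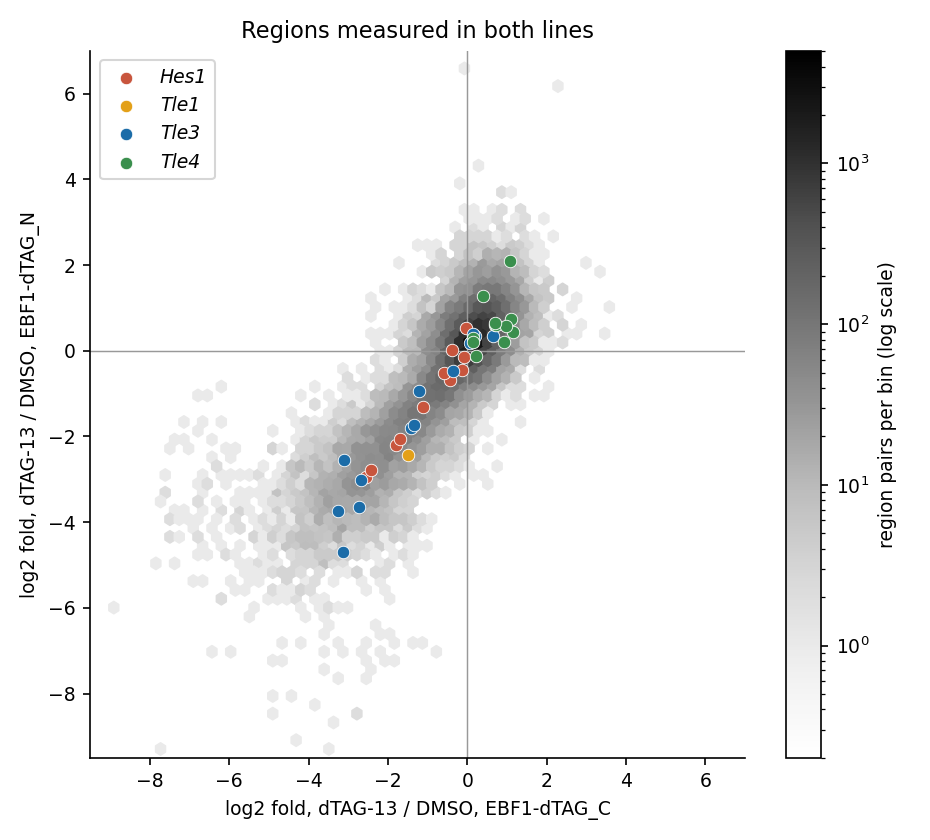
Log2 fold, dTAG-13 over DMSO, in EBF1-dTAG_C (horizontal axis) and EBF1-dTAG_N (vertical axis) for regions that overlap between the authors' deposited tables. Grey bins count all 43139 pairs on a log scale and coloured points are the 40 pairs at the 4 genes. Hes1 and Tle3 points reach into the lower left, and 11 of 12 Tle4 points have folds of the same sign in both lines.

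The other 3 Groucho family genes, Tle2, Tle5 and Tle6, are neighbours on chromosome 10. Tle5 encodes a short family member without the WD repeat domain, also known as AES. The 1 Tle5 region of EBF1-dTAG_C, chr10:81553812-81554248 and 5.4 kb outside the gene, had fold enrichments of 8.87 and 8.23 with DMSO and 0 in both after dTAG-13. In EBF1-dTAG_N, at chr10:81553778-81554385, it had 12.6 and 11.9 with DMSO and 0 in both after dTAG-13. The authors' deposited tables put it 25.8-fold lower (log2 fold -4.69, adjusted p = 6.99e-06) and 46.5-fold lower (log2 fold -5.54, adjusted p = 5.23e-252). The deposited fall was larger than at any region of the 4 genes in the same table. The other Tle5 region of EBF1-dTAG_N, chr10:81561063-81561212 inside the gene, was listed in 1 dTAG-13 library and rose (2.83-fold higher, adjusted p = 0.0337 in the authors' deposited table). The 1 Tle2 region rose slightly in EBF1-dTAG_N (log2 fold 0.51, adjusted p = 0.0343) and was not called in EBF1-dTAG_C (log2 fold 0.19, adjusted p = 0.716) in the authors' deposited tables. Of the Tle6 regions none was called in EBF1-dTAG_C, and 1 of 2 fell in EBF1-dTAG_N (log2 fold -0.36, adjusted p = 0.00467 in the authors' deposited table).

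The wider pathway was read from 34 other genes in 5 lists: Groucho family, HES and HEY repressors, Notch receptors and ligands, Notch nuclear factors and targets, and the DNA-binding partners of Groucho. In EBF1-dTAG_C 23 of their 248 regions fell (9.27%) and none rose, with a fall at 16 genes. In EBF1-dTAG_N 60 of 268 fell (22.4%) and 54 rose, with a fall at 23 genes and a rise at 19. Of all regions, 6.62% and 18.5% fell and 0.308% and 18.8% rose, and none of the differences from these shares was tested. The numbers of genes have no share of all genes beside them and are a description. By list, the share that fell in EBF1-dTAG_C was 5.13% for Notch receptors and ligands, 8.43% for Notch nuclear factors and targets, 9.52% for Groucho partners, 18.8% for HES and HEY repressors and 20% (1 of 5 regions) for the Groucho family. In EBF1-dTAG_N it was 24.4%, 13.6%, 26.3%, 26.3% and 40% (2 of 5 regions) in the same order. The rises in EBF1-dTAG_N were, again in that order, 6 of 45, 22 of 81, 20 of 118, 4 of 19 and 2 of 5 regions.

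Among these genes the most called regions lay at Maml2, Runx1, Pax5, Lef1 and Notch1. Maml2, a coactivator of the Notch complex, had 2 of 36 regions fall in each line and 11 rise in EBF1-dTAG_N. Runx1, a DNA-binding partner of Groucho, had 1 of 21 and 6 of 23 regions fall, and 5 rise in EBF1-dTAG_N. Pax5, the B lineage factor, had 2 of 14 and 6 of 23 fall and 3 rise in EBF1-dTAG_N, the smallest adjusted p of a fall in EBF1-dTAG_C being at a log2 fold of -0.76 (adjusted p = 0.00824 in the authors' deposited table). Lef1, a partner of beta-catenin and Groucho, had 3 of 16 and 6 of 19 fall and 1 rise in EBF1-dTAG_N. Its falls were led in EBF1-dTAG_C by a region 55.7 kb away with a deposited log2 fold of -3.03 (adjusted p = 3.60e-05). The receptor gene Notch1 had 1 of 7 and 7 of 12 fall and 2 rise in EBF1-dTAG_N, with a deposited log2 fold of -0.93 at the fall of smallest adjusted p in that line.

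**Figure D5:**
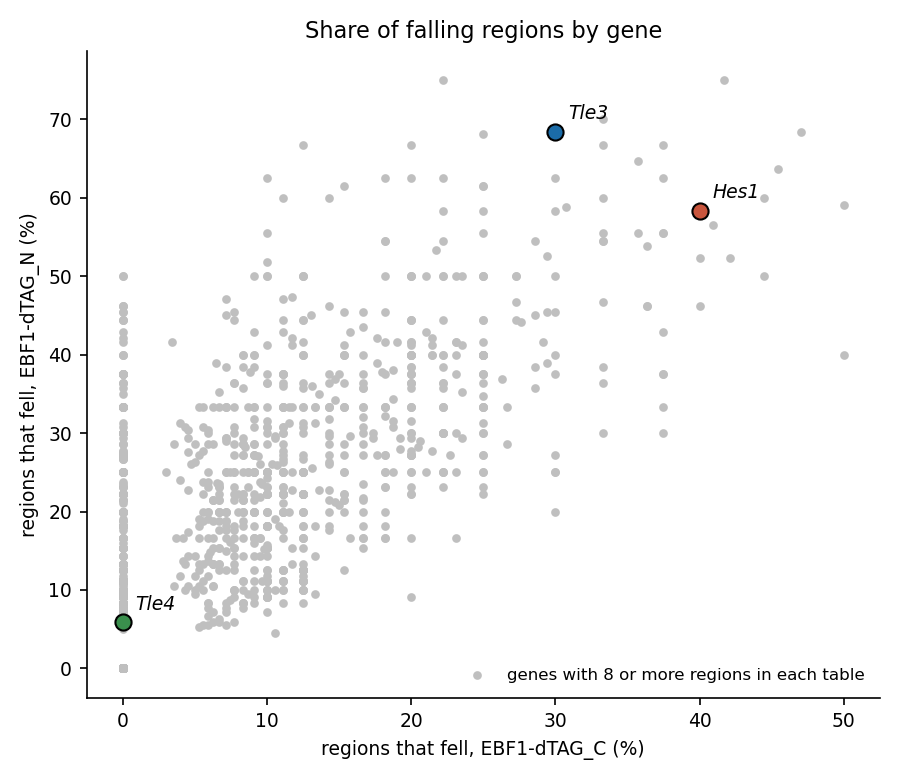
Percent of a gene's regions that fell in EBF1-dTAG_C (horizontal axis) and EBF1-dTAG_N (vertical axis), for the 1190 genes with at least 8 regions in each of the authors' deposited tables. Grey points are all such genes and the named points are Hes1 (40% and 58.3%), Tle3 (30% and 68.4%) and Tle4 (0% and 5.88%). Hes1 and Tle3 were selected for their falls in these same contrasts.

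Hes1 and Tle3 were selected for their falling regions in these same contrasts, so a high place by falling share follows from that choice. Their places are a description. Against the 1190 genes with at least 8 regions in each table, 9 had a larger falling share than Hes1 in EBF1-dTAG_C and 27 in EBF1-dTAG_N. For Tle3 these numbers were 37 and 3, and for Tle4 754 and 1055, while Tle1 had too few regions to enter. The median gene had 7.85% of its regions fall in EBF1-dTAG_C and 22.2% in EBF1-dTAG_N. By the sum over both lines of the absolute difference in the falling share, the genes most like Hes1 were Col26a1 (2.72 percentage points), Gm31493 and Myo7a (5.28 each). Those most like Tle3 were Alpl (4.91), Elovl5 (5.09) and Pde2a (5.24). Col26a1 had 9 of 22 and 13 of 23 regions fall, and Alpl 4 of 12 and 7 of 10.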

How the data were processed

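ATAC-seq libraries from 2 lines (EBF1-dTAG_C, EBF1-dTAG_N) with DMSO or dTAG-13, 2 per group, were grouped by their titles. Per the submitters' processing notes, the build was GRCm38 (mm10) and the tools were edgeR 3.32.0, MACS2 2.2.7.1, deepTools 3.3.2, SAMtools 1.10 and Bowtie2 2.3.5.1, with no role stated. How reads were filtered, shifted for Tn5 and scaled is not given in the sources used here. Per the file headers, the deposited tables hold for each region the log2 fold change, the log2 CPM averaged over libraries, the F score, the p-value and its adjusted p-value, and no values per library. No test was therefore refitted, and region values carry no SD or n. The deposited peak lists, 1 per library, give a score, a fold enrichment (ratio to the local background) and the −log10 p and −log10 q of each peak.

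Repeated entries (8 and 12) were counted once. Regions were assigned with Python 3.11.15 and pandas 2.3.3 to the nearest of 21900 protein-coding spans, and the assignment was tested on simulated data. A positive fold was checked to mean more accessible after dTAG-13: where both DMSO lists and no dTAG-13 list held a peak, 92.6% and 96.7% of regions had negative folds. Relative depth was solved from fold enrichment and −log10 p. In 2 lists the peak names carry another replicate number than the label, so the numbers were not taken to pair libraries. Regions given in full are, per gene and line, the 5 called regions of smallest adjusted p, those at the gene start, and those in both DMSO lists and no dTAG-13 list of both lines; further regions were chosen after their values were seen. Alternatives were the threshold, centring, degrees of freedom, assignment distance, gene set, peak filters and leaving out each library. The value of 1 marker gene is not reported here. Members and lists were chosen with earlier results of these data known.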

Additional observations from a re-analysis of the deposited data

How the results depend on the processing

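With the nearest of all annotated genes, non-coding ones included, fewer regions were assigned to Hes1, Tle3 and Tle4. At Hes1 2 of 4 regions then fell in each line, in place of 6 of 15 (EBF1-dTAG_C) and 7 of 12 (EBF1-dTAG_N). At Tle3 0 of 6 fell in EBF1-dTAG_C, in place of 6 of 20, and 2 of 4 in EBF1-dTAG_N, in place of 13 of 19. All 6 Tle3 falls of EBF1-dTAG_C thus lay nearer to another annotated gene. At Tle4 0 of 9 fell in EBF1-dTAG_N, in place of 1 of 17. Within 50 kb, Tle3 had 3 falling regions in EBF1-dTAG_C and Tle4 had 0 in EBF1-dTAG_N. At an adjusted p under 0.01 Tle3 had 3 in EBF1-dTAG_C. The 8 rising regions in EBF1-dTAG_N became 5 at an adjusted p under 0.01, 2 at an absolute log2 fold of at least 1, 1 on centred folds and 5 with the degrees of freedom of EBF1-dTAG_C; the cause was not tested beyond how each is built. Of single regions, 4 lost their call at 0.01, 5 on centred folds (rises in EBF1-dTAG_N) and 1 with those degrees of freedom, and no called region changed sign; the uncalled Hes1 region at chr16:30066946 in EBF1-dTAG_N went from 0.02 to -0.15 on centred folds. The difference of mean peak numbers at the 4 genes, dTAG-13 minus DMSO, was -10.5 in EBF1-dTAG_C, -6.5 for peaks whose −log10 q was at least 5 and -1.0 when every list was cut to the same number of best peaks. In EBF1-dTAG_N it was -7.5, -11.5 with that q and -6.5 with lists of the same length. Leaving out each library in turn gave -13 to -8 (EBF1-dTAG_C) and -10 to -5 (EBF1-dTAG_N). Regions listed in both DMSO libraries and no dTAG-13 library numbered 8 in each line, and 10 to 15 without 1 library in EBF1-dTAG_C, the 15 without DMSO replicate 1, and 10 to 12 in EBF1-dTAG_N; fewer lists have to hold or lack a peak then. No paired analysis was possible because the deposited tables hold no values per library and the peak numbers carry no test. Unknown read depth limits what an absent peak shows.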

Other observations

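Heyl, a HES-related repressor gene, stood apart in its list and was chosen after its values were seen. Its region chr4:123237881-123238299, inside the gene, had fold enrichments of 16.8 and 18.6 with DMSO and 0 in both dTAG-13 libraries of EBF1-dTAG_C. In EBF1-dTAG_N, at chr4:123237849-123238325, it had 24.0 and 23.6 with DMSO and 0 in both after dTAG-13. The authors' deposited tables put it 18.1-fold lower (log2 fold -4.17, adjusted p = 5.72e-05) and 21.2-fold lower (log2 fold -4.41, adjusted p = 2.31e-141). A weaker Heyl region fell too, with deposited log2 folds of -3.81 (adjusted p = 0.0497) and -3.40 (adjusted p = 2.66e-12).

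A few Notch pathway genes, also picked after their values were seen, had a region that fell in both lines. Others did not: Notch2 and Notch4 had 0 falls in either line, and Rbpj had 0 falls and 5 EBF1-dTAG_N rises. Shares are given with EBF1-dTAG_C first. Of all regions, 6.62% and 18.5% fell. The falling shares were 8.43% and 13.6% for Notch nuclear factors and targets and 5.13% and 24.4% for Notch receptors and ligands. For HES and HEY repressors they were 18.8% and 26.3%. No difference between these shares was tested. Dtx1, a Notch target that encodes the ubiquitin ligase Deltex, had 2 of 6 and 3 of 5 regions fall, led by log2 folds of -3.59 (adjusted p = 4.06e-05) and -4.11 (adjusted p = 5.94e-91) in the authors' deposited tables. The receptor gene Notch3 had 1 falling region in each line, with deposited log2 folds of -2.35 (adjusted p = 3.07e-06) and -2.38 (adjusted p = 4.61e-150). Hey1 had a falling region 30.1 kb away in each line, with deposited log2 folds of -2.62 (adjusted p = 0.00489) and -3.19 (adjusted p = 2.86e-34).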
